A study of Mus musculus with 6 samples.

Results

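The Wnt ligands Wnt2 and Wnt9b, the R-spondins Rspo1 and Rspo3, the Dickkopf genes Dkk2 and Dkk3, the receptor Fzd4, the co-receptors Lrp5 and Lrp6 and the Wnt target Axin2 were followed in liver endothelial cells (ECs) of young and aged mice. These 10 genes were chosen by name for their place in the pathway, from 24421 gene symbols in the count table, and 9 of them passed the filter on low counts. ECs were sorted from the liver as CD31+CD45− cells of WT C57BL/6J mice, which were female by the study's methods. RNA of 50000 cells per sample was read as 75-base single-end reads. The young group held 3 samples from 10-week-old mice and the aged group held 1 sample each from mice of 127, 131 and 136 weeks. The labels name no treatment and no altered allele. The study's methods call the samples independent without saying whether animals were pooled, so a p-value measures the spread between these samples. The sort takes all CD31+CD45− cells, and central vein, sinusoidal and portal ECs were not separated.

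Wnt proteins bind a Frizzled receptor together with Lrp5 or Lrp6, which stabilises beta-catenin and lets it switch on target genes such as Axin2. R-spondins strengthen this signal by removing the ubiquitin ligases Rnf43 and Znrf3, which otherwise take Frizzled receptors off the cell surface, whereas Dickkopf proteins such as Dkk2 act on the co-receptors. In the liver, ECs around the central vein are a source of Wnt2, Wnt9b and Rspo3, and these signals maintain the pericentral programme of the neighbouring hepatocytes, including glutamine synthetase (Glul).

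Total counts ran from 23001556 to 31651817 per sample, so that 3 counts stood for 0.0948 to 0.130 CPM (counts adjusted for library size). Lars2 and Rn45s, symbols that collect ribosomal RNA reads, took 4.68% to 5.53% of the counts in 4 libraries but only 1.29% in the library of young replicate 3 and 0.960% in that of the 127-week mouse, and differences within both library types are given beside the pooled ones. The endothelial gene Pecam1, which encodes CD31, was at 425 to 506 FPKM (fragments scaled to exon length and to library size) in the 6 samples, with a log2 fold change of 0.015 ± 0.17 (SE). Ptprc, which encodes CD45, was at 0.216 to 0.338 FPKM in the young samples and at 1.46, 0.248 and 4.86 FPKM in the 127-, 131- and 136-week samples.

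Wnt2 and Wnt9b supplied nearly all Wnt ligand mRNA, and their upstream sequences are shown because the results turn on how these genes differed between the ages. Wnt2 lies on the minus strand at chr6:17938940-17980585 and Wnt9b on the minus strand at chr11:103588678-103611135 (mm9, the build of the deposited data, with GENCODE coordinates). RefSeq promoter windows of 250 bases before to 50 bases after the start (GRCm38.p6) were found for 6 of the 10 genes, namely Wnt2, Wnt9b, Rspo1, Dkk2, Fzd4 and Axin2, and each matched mm9 exactly at 1 place. The GENCODE start of Wnt2 lies 140 bases upstream of the RefSeq start, so the Wnt2 sequence stops there. The sequences were at chr6:18030586-18030695 for Wnt2 and chr11:103749822-103750071 for Wnt9b in GRCm38.p6, and 2 short windows of Wnt2, from −45 to −31 and from −15 to −1 relative to the RefSeq start, follow with the GATA core in capitals (GATAA read on the other strand).
Wnt2, upstream: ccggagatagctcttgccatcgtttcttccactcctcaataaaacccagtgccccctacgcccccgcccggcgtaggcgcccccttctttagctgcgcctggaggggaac
Wnt2, first GATA core: gccctTTATCgctcg
Wnt2, second GATA core: gaaactTTATCagtg
Wnt9b, upstream: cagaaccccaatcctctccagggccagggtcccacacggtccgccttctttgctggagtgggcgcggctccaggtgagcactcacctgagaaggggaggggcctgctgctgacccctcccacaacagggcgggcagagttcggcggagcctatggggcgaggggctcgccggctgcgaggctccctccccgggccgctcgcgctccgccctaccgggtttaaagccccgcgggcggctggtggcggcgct

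The windows of Wnt2 and Wnt9b had a GC content of 65.7% and 71.7%, against a median of 52.7% over all promoter windows. The letters of 4 motifs were searched on both strands of the 6 windows. The GATA core GATAA occurred in 1 window, that of Wnt2, and in 25.4% of 32851 promoter windows. The TATA box TATAAA occurred in 1 window, that of Dkk2, and in 13.6% of all windows. Neither the TCF/LEF core CTTTGA (16.0% of all windows) nor the ETS core CCGGAA (14.9%) occurred in any of the 6. Such a match is a run of letters and not a measured binding site.

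Wnt2 stood out among the 10 genes for its lower level in aged ECs. Its FPKM was 411, 363 and 388 in the young samples and 206, 245 and 124 in the 127-, 131- and 136-week samples. Every aged sample was below every young sample, and the means were 387 ± 24.0 and 191 ± 61.9 FPKM (SD, n = 3 each). The level was 2.01-fold lower in aged ECs, a log2 fold change of -1.01 ± 0.26 (SE), with an unadjusted p of 0.00522 and a Benjamini-Hochberg adjusted p of 0.245 in edgeR's quasi-likelihood test over 14612 genes. The adjusted p missed the threshold of 0.05, and DESeq2's Wald test, the only alternative to call Wnt2, gave a log2 fold change of -1.02 and an adjusted p of 0.0103. Over the 14 alternatives the adjusted p lay between 0.0103 and 0.625 and the log2 fold change between -1.23 and -0.77. The aged minus young difference in log2(CPM + 0.5) was -1.14 within the 4 libraries with many Lars2 and Rn45s counts and -0.90 within the 2 libraries with few.

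The same test called 0 of 14612 genes (0%), while 1847 genes (12.6%) had an unadjusted p below 0.05, of which 1216 (8.32%) were higher and 631 (4.32%) lower in aged ECs. DESeq2's Wald test called 412 genes higher and 85 lower, and limma-voom with sample quality weights called 13 and 2. Of the 9 tested genes of the present set 0 were called, 1 (Axin2) had an unadjusted p below 0.05 and a higher level in aged ECs, and 2 (Wnt2 and Lrp5) a lower one. Wnt2 and Lrp5 were also the only 2 whose CPM did not overlap between the ages, both lower in aged ECs, while 0 were higher. Over all tested genes the share without overlap was 17.9%, made up of 8.33% lower and 9.62% higher. The log2 fold change was above 0 for 5 genes and below 0 for 4, and its median was 0.017 over the 9 genes and 0.0098 over all tested genes. In bulk ECs, fewer cells of a type and less RNA per cell cannot be told apart.

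**Figure D1:**
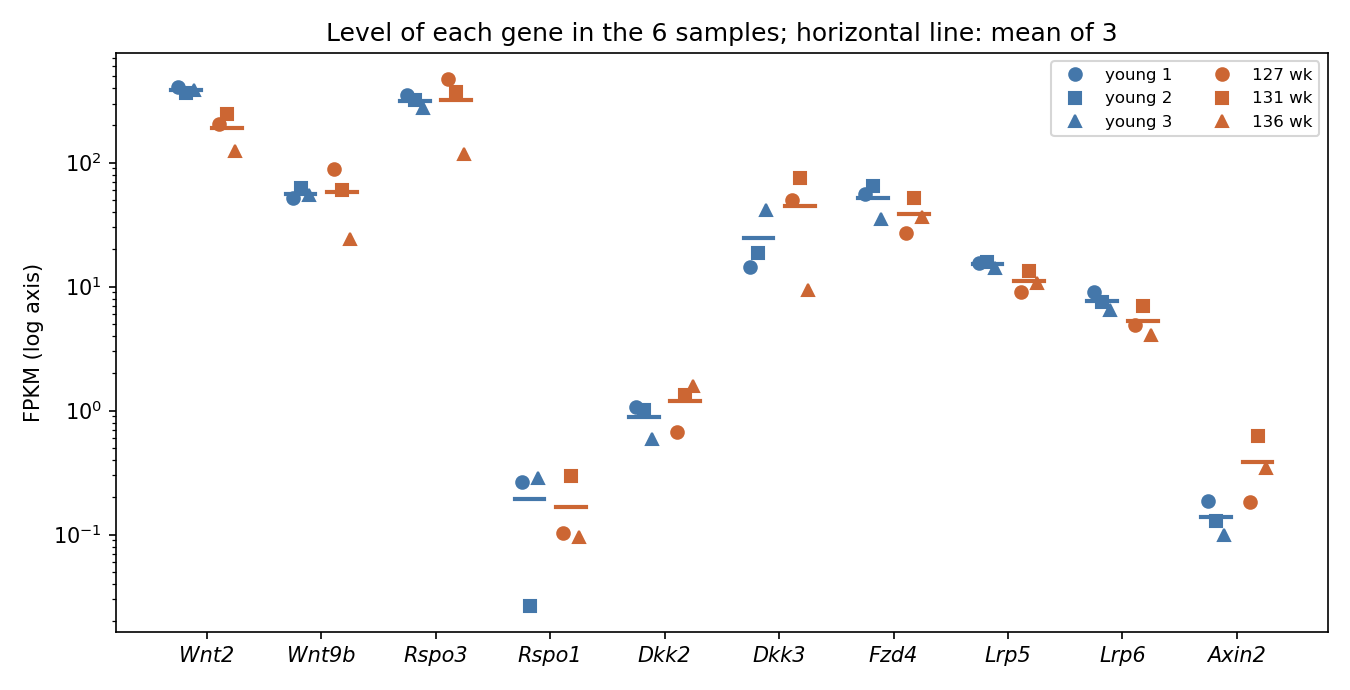
FPKM of the 10 genes (log axis) in the 3 young samples (blue) and the 127-, 131- and 136-week samples (orange), with a line at the mean of each group. Wnt2 was at 363 to 411 in the young and 124 to 245 in the aged samples, while the points of Wnt9b and Rspo3 overlap between the ages.

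Wnt9b, the other ligand, did not share this order. Its FPKM was 51.7, 62.1 and 54.9 in the young samples and 89.7, 59.9 and 24.1 in the 127-, 131- and 136-week samples. The 127-week sample was above and the 136-week sample below all young samples, so the aged values enclosed the young ones. The log2 fold change was 0.045 ± 0.41 (SE), with an adjusted p of 0.981 in edgeR's test. Within the library types the differences were -0.57 (many Lars2 and Rn45s counts) and 0.72 (few), on opposite sides of 0. Without the 127-week sample the log2 fold change was -0.40, and without the 136-week sample it was 0.41, so its sign rested on single libraries.

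Rspo3, the R-spondin of central vein ECs, lies on the minus strand at chr10:29172915-29255673 (mm9) and had the same pattern over samples as Wnt9b. Its FPKM was 349.6, 323 and 275 in the young samples and 470.2, 370.2 and 117 in the 127-, 131- and 136-week samples. The aged values again enclosed the young ones, with the highest level at 127 weeks and the lowest at 136 weeks. The log2 fold change was 0.017 ± 0.45 (SE), with an adjusted p of 0.993 in edgeR's test, and it was -0.36 without the 127-week sample and 0.41 without the 136-week sample. The difference in log2(CPM + 0.5) was -0.69 (many Lars2 and Rn45s counts) and 0.78 (few) within the library types and -0.20 over all 6 samples. The spread of the aged samples was wide for all 3 genes: the coefficient of variation of FPKM was 6.19% in young and 32.3% in aged ECs for Wnt2, 9.49% and 56.7% for Wnt9b, and 11.9% and 57.1% for Rspo3.

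Rspo1, the other R-spondin of the set, lies on the plus strand at chr4:124663674-124686343 (mm9) and was near the limit of detection. Its counts were 12, 1 and 15 in the young samples and 7, 13 and 4 in the aged samples. Its CPM on unadjusted totals, which the filter used, was at most 0.493 and so below 0.5 in all samples, and it was not tested, and a difference at this depth was not detectable. Rspo2 and Rspo4, the remaining R-spondins, were at 0 FPKM in all 6 samples.

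**Figure D2:**
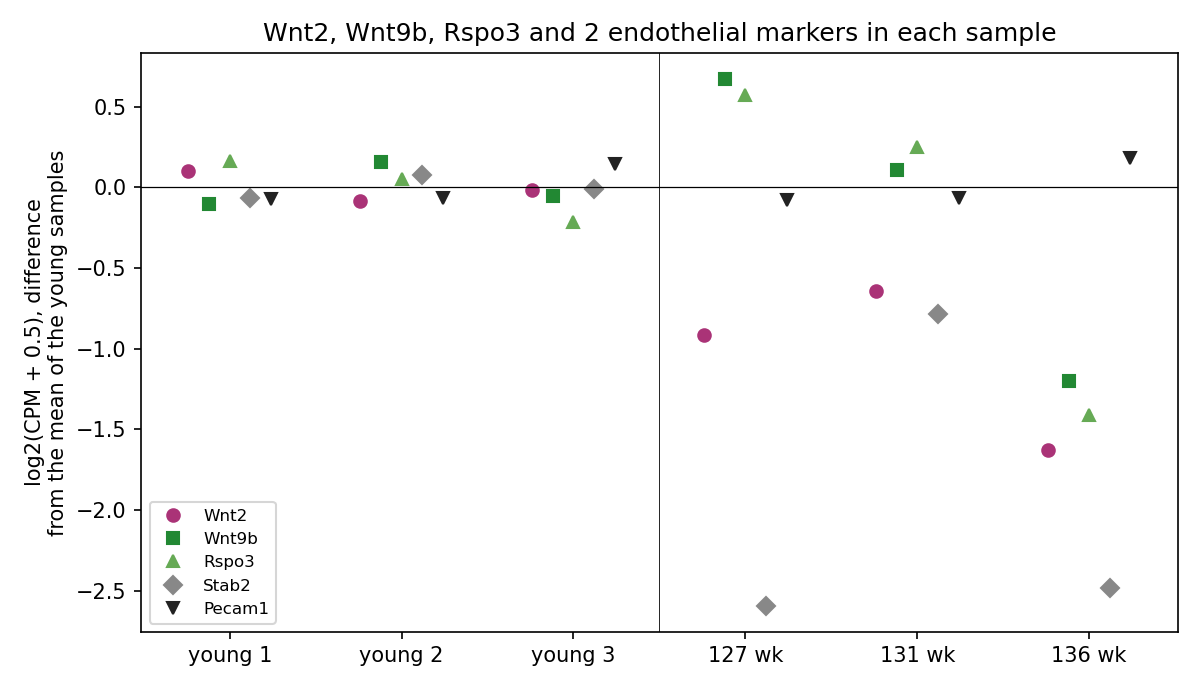
Difference of log2(CPM + 0.5) from the mean of the young samples, for Wnt2, Wnt9b, Rspo3 and the endothelial genes Stab2 and Pecam1, with 1 point per gene in each of the 6 samples. Wnt2 and Stab2 are below the young samples in every aged sample, Wnt9b and Rspo3 lie on both sides, and Pecam1 stays near 0.

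Ratios within a sample do not depend on library size. Wnt9b relative to Wnt2, as the log2 ratio of FPKM + 0.1, was -2.99, -2.54 and -2.82 in young ECs and -1.20, -2.03 and -2.35 in the 127-, 131- and 136-week samples. Every aged ratio was above every young one, and the mean was 0.92 higher in aged ECs. The two-sided exact permutation test gave p = 0.1, the smallest that 3 samples against 3 allow, and an adjusted p of 0.25 over the 5 ratios tested. The difference was 0.58 within the libraries with many Lars2 and Rn45s counts and 1.62 within those with few.

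Rspo3 relative to Wnt2 was -0.23, -0.17 and -0.49 in young ECs and 1.19, 0.60 and -0.08 in the aged samples, on the same scale. The aged ratios were again all above the young ones, by 0.87 on average, with an exact permutation p of 0.1 (adjusted 0.25) and within-type differences of 0.46 (many such counts) and 1.68 (few). Both ratios divide by Wnt2, which was lower in every aged sample, so they are not independent of each other or of the Wnt2 result. Rspo3 relative to Wnt9b, by contrast, stayed within a range of 0.48 over the 6 samples, and its mean differed by -0.056 between the ages (exact permutation p = 0.7, adjusted 0.9). In linear FPKM, Rspo3 was 5.66 ± 0.957 times Wnt9b in young and 5.42 ± 0.682 times in aged ECs (SD, n = 3 each).

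**Figure D3:**
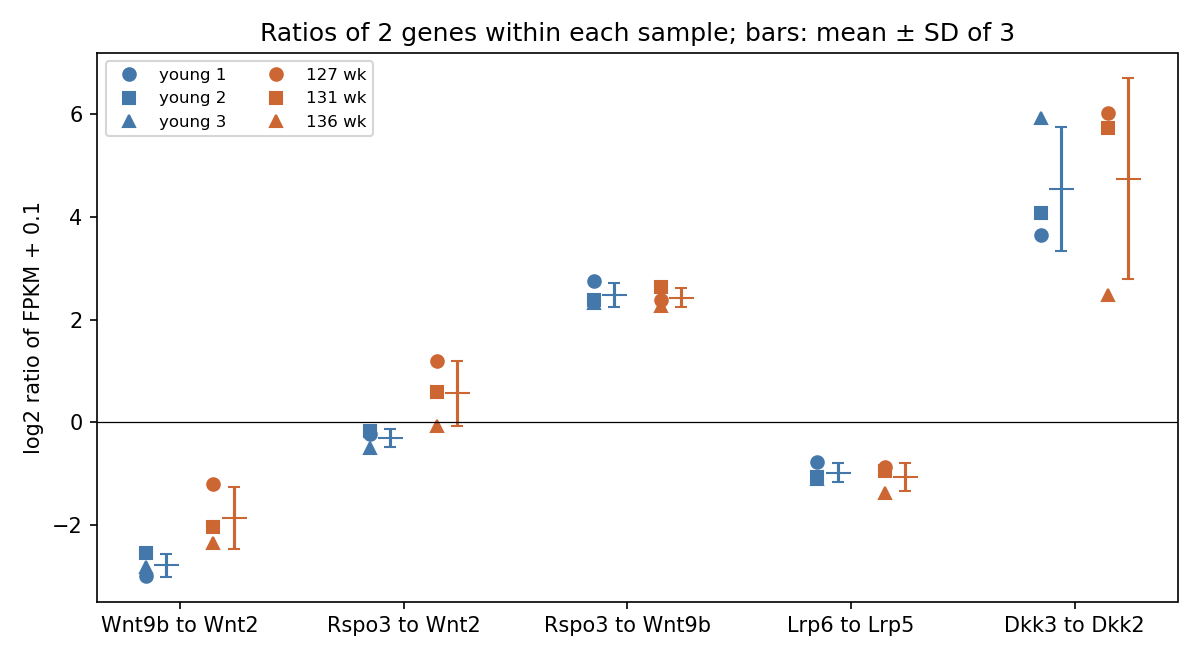
Log2 ratio of FPKM + 0.1 for 5 pairs of genes in each young (blue) and aged (orange) sample, with mean ± SD of 3 samples beside the points. The aged samples lie above the young ones for Wnt9b to Wnt2 and Rspo3 to Wnt2, while the Rspo3 to Wnt9b ratio overlaps within a range of 0.48.

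The FPKM of the 19 Wnt ligands listed summed to 465, 427 and 444 in the young samples and to 299, 307 and 153 in the aged samples. Wnt2 made up 88.4%, 85.1% and 87.3% of this sum in young ECs and 69.1%, 79.8% and 80.7% in the 127-, 131- and 136-week samples. Wnt2 and Wnt9b together made up 99.6% to 99.7% in the young and 96.5% to 99.3% in the aged samples. Among the other ligands, Wnt5b reached at most 1.84 FPKM, and Wnt5a and Wnt11, which signal largely without beta-catenin, at most 1.48 FPKM. Of the 9 tested ligands 6 had a log2 fold change above 0 and 3 below, with a median of 0.82 that was 0.27 without young replicate 2 and 0.079 in limma on log2(FPKM + 1). Of these ligands 3 passed the filter on low counts only through aged samples, Wnt5a among them, so a higher fitted value was favoured for them. Wnt5a was at 0 to 0.0778 FPKM in young and 0.202 to 0.375 FPKM in aged ECs, with a log2 fold change of 2.95 and an adjusted p of 0.345 in edgeR's test. Wnt11 was at 0.109 to 0.223 FPKM in young and 0.203 to 1.48 FPKM in aged ECs (log2 fold change 2.38, adjusted p = 0.311 in edgeR's test), and Wnt5b had a log2 fold change of 1.24 with an unadjusted p of 0.0616 in the same test. Wnt5b was at 0.381 to 0.546 FPKM in young and 0.580 to 1.84 FPKM in aged ECs, without overlap.

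Likeness of pattern to Wnt2, Wnt9b and Rspo3 was measured as the root mean square difference of centred log2(CPM + 1) over the 6 samples, among 10223 genes with a mean of at least 5 CPM. Il16 (0.10), Gpr182 (0.11) and Zfp472 (0.12) were the nearest to Wnt2, whereas Rspo3 ranked 3523 and Wnt9b 3909. The nearest to Rspo3 was Wnt9b (0.17), followed by Vstm5 and Lhfpl2, and Rspo3 ranked 3 for Wnt9b, after Hpse and Itgb7. With 6 samples this ordering is a description.

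The Dickkopf genes differed in level and in spread. Dkk2, an antagonist of the co-receptors, lies at chr3:131748256-131843257 (plus strand, mm9) and was at 1.08, 1.01 and 0.587 FPKM in young and 0.671, 1.32 and 1.58 FPKM in aged ECs. These values overlapped, with a log2 fold change of 0.42 ± 0.42 (SE) and an adjusted p of 0.750 in edgeR's test, and it was 0.16 without the 136-week sample, 0.20 without young replicate 3 and 0.71 without the 127-week sample. It was 0.082 in limma-voom and 0.20 in limma on log2(FPKM + 1). Dkk3, a divergent member of the family, lies at chr7:119259533-119302571 (minus strand, mm9) and was at 14.5, 18.7 and 41.4 FPKM in young and 49.6, 75.4 and 9.31 FPKM in the 127-, 131- and 136-week samples. Both the highest and the lowest value were in aged ECs, 8.10-fold apart. The log2 fold change of Dkk3 was 0.86 ± 0.70 (SE), with an adjusted p of 0.680 in edgeR's test, and it ranged from 0.24 without the 131-week sample to 1.43 without young replicate 3. The log2 ratio of Dkk3 to Dkk2 differed by 0.20 between the ages (exact permutation p = 0.9, adjusted 0.9).

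The receptor and both co-receptors had lower means in aged ECs. Fzd4, a Frizzled receptor of ECs, lies at chr7:96552876-96558620 (plus strand, mm9) and was at 55.8, 64.9 and 35.0 FPKM in young and 27.3, 51.6 and 36.6 FPKM in aged ECs. The ranges overlapped, and the log2 fold change was -0.43 ± 0.30 (SE) with an adjusted p of 0.620 in edgeR's test. It was -0.23 without the 127-week sample, -0.24 without young replicate 2, -0.65 without young replicate 3, -0.70 without the 131-week sample and -0.67 in limma-voom. Lrp5 lies at chr19:3584825-3686564 (minus strand, mm9) and was at 15.5, 15.8 and 14.1 FPKM in young and 8.98, 13.4 and 10.7 FPKM in aged ECs. All aged samples were below all young ones, with a log2 fold change of -0.44 ± 0.17 (SE), an unadjusted p of 0.0360 and an adjusted p of 0.368 in edgeR's test, and differences of -0.38 (many Lars2 and Rn45s counts) and -0.62 (few) within the library types.

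Lrp6 lies at chr6:134396494-134516983 (minus strand, mm9) and was at 9.02, 7.54 and 6.51 FPKM in young and 4.86, 6.95 and 4.10 FPKM in aged ECs. Only the 131-week sample overlapped the young range, and the log2 fold change was -0.52 ± 0.23 (SE) with an unadjusted p of 0.0571 and an adjusted p of 0.412 in edgeR's test. The log2 ratio of Lrp6 to Lrp5 differed by -0.082 between the ages (exact permutation p = 0.8, adjusted 0.9).

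Axin2, a feedback inhibitor and direct target of beta-catenin, lies at chr11:108781663-108812097 (plus strand, mm9) and was low in these ECs. Its counts were 22, 12 and 13 in the young and 22, 70 and 37 in the 127-, 131- and 136-week samples, or 0.0998 to 0.186 FPKM and 0.182 to 0.627 FPKM. The 127-week sample overlapped the young range, and the other aged samples were above it. The level was 2.80-fold higher in aged ECs, a log2 fold change of 1.49 ± 0.63 (SE) with an unadjusted p of 0.0493 and an adjusted p of 0.393 in edgeR's test, and it was 0.93 with an unadjusted p of 0.215 without the 131-week sample and 0.27 in limma on log2(FPKM + 1). Axin2 shares 209 exonic bases (3.80%) with Gm11670 on the opposite strand, and the TruSeq v2 kit does not mark strand, so reads in that stretch cannot be told apart.

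**Figure D4:**
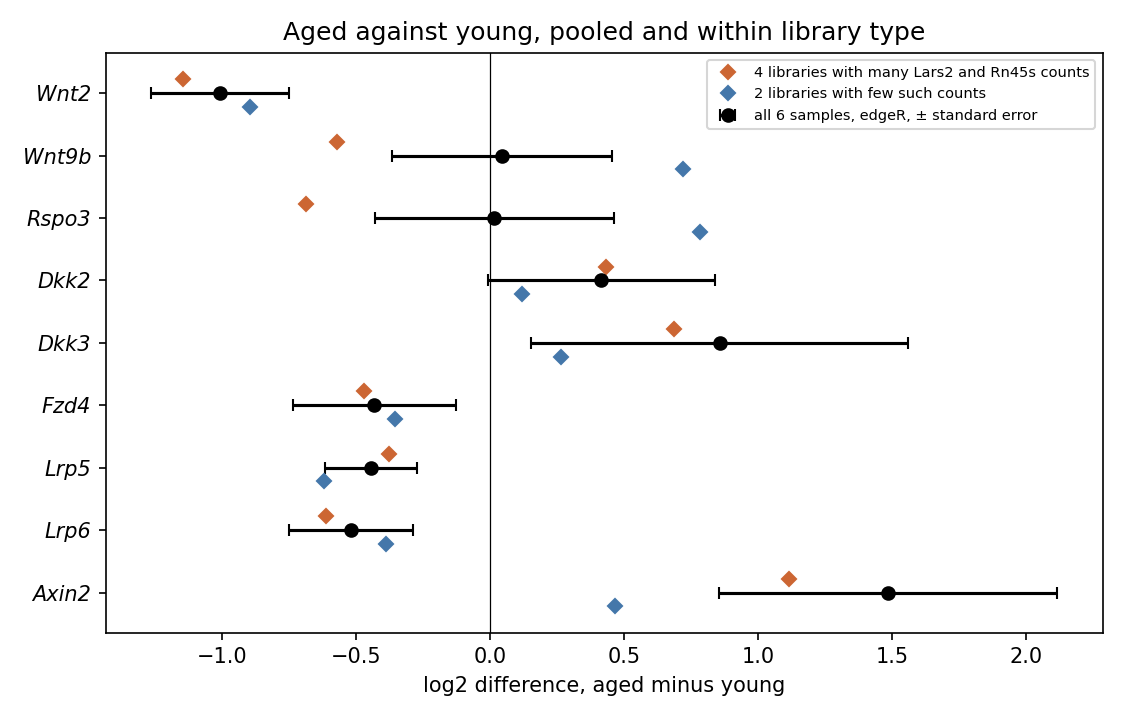
Log2 difference, aged minus young, of the 9 tested genes: edgeR's value over all 6 samples with its standard error (black), and the difference in log2(CPM + 0.5) within the 4 libraries with many (orange) and the 2 with few (blue) Lars2 and Rn45s counts. Wnt2 and Lrp5 are below 0 in all 3 values, while Wnt9b and Rspo3 are on opposite sides of 0 in the library types.

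By mean FPKM, which is per length of exon, young ECs had the order Wnt2 (387), Rspo3 (316), Wnt9b (56.3), Fzd4 (51.9), Dkk3 (24.9), Lrp5 (15.1), Lrp6 (7.69), Dkk2 (0.890), Rspo1 (0.193) and Axin2 (0.138). The ranges over samples of Wnt9b and Fzd4, of Fzd4 and Dkk3, of Dkk3 and Lrp5 and of Rspo1 and Axin2 overlapped, and those of the other neighbours did not. In aged ECs Rspo3 (319) stood before Wnt2 (191), but their ranges overlapped, as did those of Wnt9b (57.9) and Dkk3 (44.8), of Dkk3 and Fzd4 (38.5) and of Axin2 (0.385) and Rspo1 (0.166). Averaged over the 6 samples, Rspo3 and Wnt2 ranked 264 and 292 of 24346 genes.

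The wider pathway was read from lists of ligands, secretion factors, the R-spondin axis, Frizzled receptors, co-receptors, secreted inhibitors, cytoplasmic and nuclear factors and target genes. Without the 10 genes above, 71 listed genes were tested and 0 were called. Of these, 10 had an unadjusted p below 0.05 with a higher level and 3 with a lower level in aged ECs, and 48 had a log2 fold change above 0 and 23 below. Over all tested genes, 8.32% had such a p with a higher and 4.32% with a lower level, and 48.9% lay below 0. These shares are also the baseline for the counts of each list below. The median log2 fold change was 0.16, against 0.0098 over all tested genes. Of the 71 genes 11 passed the filter only through aged samples and 1 only through young ones, while each of the 9 tested genes of the set above passed it in both ages.

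In the R-spondin axis, Znrf3, a ubiquitin ligase that R-spondins remove, was at 0.160 to 0.278 FPKM in young and 0.460 to 0.898 FPKM in aged ECs. All aged samples were above all young ones, with a log2 fold change of 1.65 ± 0.44 (SE) and an adjusted p of 0.254 in edgeR's test (DESeq2's Wald test gave 0.0169). Its partner Rnf43 (log2 fold change -0.50) and the R-spondin receptor Lgr4 (-0.013) overlapped between the ages. The 5 tested genes of the axis had a median of 0.017, which was 0.41 without the 136-week sample. Of the 3 secretion factors, Wls, which carries Wnt proteins to the surface, was at 75.2 to 108 FPKM with a log2 fold change of -0.085, and Porcn, which adds their lipid, had one of 0.087.

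Among the 10 Frizzled receptors 8 lay above 0 on the log2 scale, with a median of 0.33 (0.057 in limma-voom), and the unadjusted p was below 0.05 for 2, both higher. Fzd6 was at 21.9, 21.9 and 22.3 FPKM in young and 29.8, 25.7 and 36.8 FPKM in aged ECs, a log2 fold change of 0.49 ± 0.16 (SE) with an adjusted p of 0.317 in edgeR's test. Fzd5 had a log2 fold change of 1.15 (adjusted p = 0.364 in edgeR's test), which was 0.45 without the 136-week sample, and Fzd8 had one of 0.083. Of 11 tested co-receptors and their partners, 5 were above and 6 below 0, with a median of -0.13, and the EC receptor partner Tspan12 (0.10), Ryk (-0.18), Reck (0.37) and Kremen2 (1.13, past the filter only through aged samples) had unadjusted p values above 0.05.

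All 9 tested secreted inhibitors, Dkk2 and Dkk3 included, had a log2 fold change above 0, with a median of 0.86 (0.49 without the 136-week sample and 0.32 in limma on log2(FPKM + 1)). Only 1 of the 9, Sost, was higher without overlap, at 0.0503 to 0.810 FPKM in young and 1.37 to 2.35 FPKM in aged ECs. Over all tested genes 9.62% were higher without overlap. Sfrp2 was above 0 in edgeR's fit (0.22), but its difference in log2(CPM + 0.5) was -0.070. Sfrp5 and Wif1 passed the filter on low counts only through aged samples, which favoured a value above 0 for these 2, and the other 7 passed it in both ages. The unadjusted p was below 0.05 for 3 of them. These were Sost (2.23), Sfrp5 (3.02) and Frzb (1.67), with adjusted p values of 0.353, 0.355 and 0.370 in edgeR's test, and Sfrp5 had counts of only 3, 1 and 1 in young and 3, 10 and 28 in aged ECs. Frzb, a secreted Wnt-binding protein, was at 3.05 to 5.09 FPKM in young ECs and at 6.66, 3.84 and 24.9 FPKM in the 127-, 131- and 136-week samples, and its log2 fold change was 0.49 without the 136-week sample. Sfrp1 had a log2 fold change of 0.77 with an unadjusted p of 0.200 in the same test.

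In the cytoplasmic core 6 genes were above and 8 below 0, with a median of -0.049 (0.075 without young replicate 3). Ctnnb1, which encodes beta-catenin, was at 140.5 to 166 FPKM in young and 163 to 179.8 FPKM in aged ECs, with a log2 fold change of 0.20 ± 0.15 (SE). Csnk1a1 (0.12), Amer1 (-0.41) and Tnks (-0.20) had adjusted p values of 0.617 to 0.778 in edgeR's test. Of 12 nuclear factors, 2 had an unadjusted p below 0.05 and a lower level, Tle1 (-0.83) and Pygo2 (-0.34), with adjusted p values of 0.371 and 0.379 in edgeR's test. Tle1 was at 44.1, 47.4 and 104 FPKM in young ECs, and without young replicate 3, the highest, its log2 fold change was -0.38 with an unadjusted p of 0.122. Tcf7l1 had a log2 fold change of -0.26. The median of the nuclear factors was 0.24, but 0.065 in limma-voom, 0.076 without the 136-week sample and 0.087 without young replicate 3.

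Of the 14 target genes, 11 had a log2 fold change above 0 and 3 below, with a median of 0.70 (0.42 and 0.17 in limma on log2(FPKM + 0.1) and log2(FPKM + 1)), although 3 passed the filter only through aged samples, and 4 had an unadjusted p below 0.05 with a higher and 1 with a lower level in aged ECs. The 4 were Axin2, Znrf3, Myc and Tnfrsf19, and the lower one was Nkd1. Nkd1 was at 14.4, 12.8 and 16.2 FPKM in young and 10.2, 11.6 and 9.05 FPKM in aged ECs, without overlap (log2 fold change -0.48). Averaged over the 6 samples, Nkd1 was at 12.4 FPKM and Myc at 50.1, but Axin2 at 0.262, Znrf3 at 0.436 and Tnfrsf19 at 0.354. Several targets, such as Znrf3 and Rnf43, are also counted in other lists. Myc, a growth regulator with many inputs besides Wnt, was at 17.1, 22.5 and 12.1 FPKM in young and 44.6, 41.4 and 163 FPKM in aged ECs. Its log2 fold change was 2.28 ± 0.57 (SE), with an adjusted p of 0.243 in edgeR's test and 0.00116 in DESeq2's, and was 1.33 without the 136-week sample. Ccnd1 overlapped between the ages (-0.10).

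**Figure D5:**
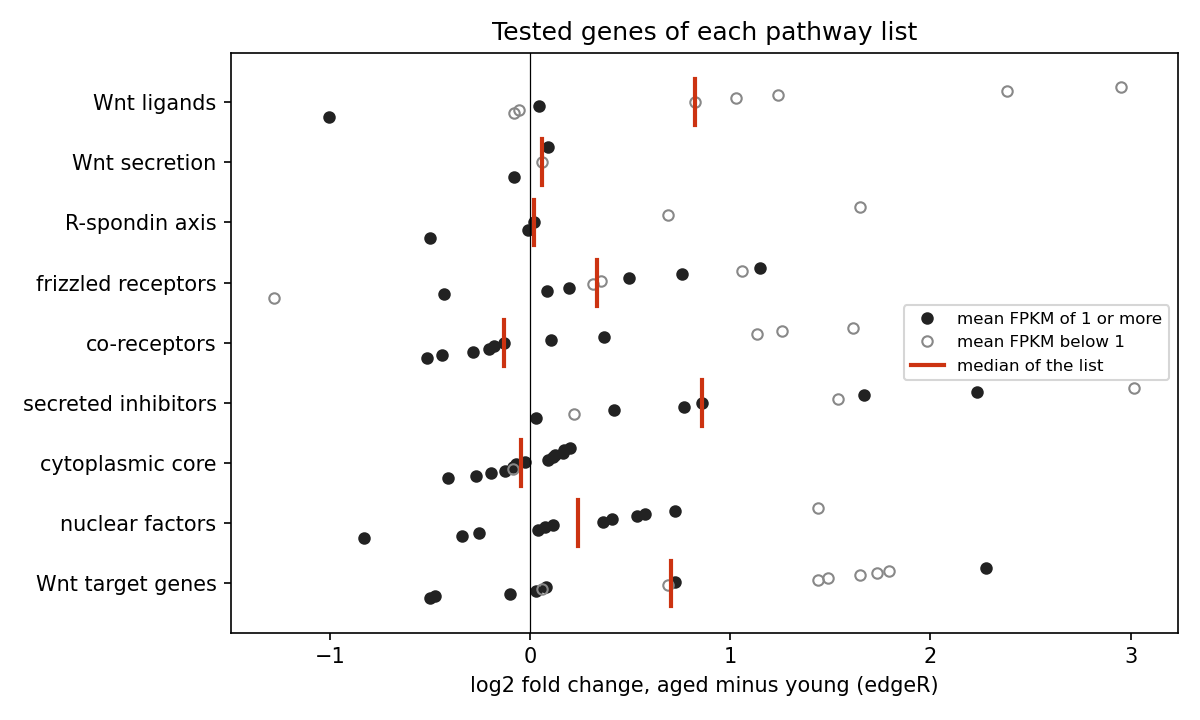
Log2 fold change, aged minus young (edgeR), of the tested genes of the 9 pathway lists, with genes of a mean FPKM below 1 as open circles and the median of each list as a red line. All 9 tested secreted inhibitors lie above 0, of which 2 passed the filter only through aged samples, and several of the larger values are of genes below 1 FPKM. Among these inhibitors only Sost did not overlap between the ages.

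Other EC markers differed in whether they were lower in aged samples. Stab2, a scavenger receptor of sinusoidal ECs, was at 348, 384 and 367 FPKM in young and 59.6, 210.0 and 64.8 FPKM in the 127-, 131- and 136-week samples, a log2 fold change of -1.70. Stab2 was lowest at 127 weeks, with a value close to it at 136 weeks, and Wnt2 was lowest at 136 weeks. Clec4g, another sinusoidal gene, had a log2 fold change of -1.46 and Eng, an endothelial co-receptor, one of -0.33. Lyve1, also of sinusoidal ECs, was at 156 to 274 FPKM in young and 267, 88.8 and 599 FPKM in aged ECs (0.58), and Cdh5, an endothelial cadherin, at 62.0, 102 and 117 FPKM in aged ECs (-0.21). Of the 12 genes of the endothelial list 10 were below 0 and 7 were lower without overlap, with a median of -0.36. Over all tested genes 48.9% were below 0 and 8.33% were lower without overlap. The FPKM of the endothelial list summed to 8700 to 9862 in young and 4222 to 6843 in aged ECs. Their part in the lower Wnt2 was not tested.

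Among 8 markers of pericentral ECs, which include Wnt2, Wnt9b and Rspo3, 3 were above and 5 below 0, with a median of -0.050. Cdh13 (-0.10), Thbd (-0.11), Lhx6 (0.16) and Fabp4 (-0.0012) overlapped between the ages, whereas Kit was lower in every aged sample (-1.17). Cdh13 was at 129 FPKM in the 136-week sample and at 278 to 386 FPKM in the other 5. The 8 periportal EC markers had 4 above and 4 below 0 and a median of -0.036. Ltbp4 (-0.11) and Cd36 (-0.22) overlapped between the ages, whereas Msr1, a scavenger receptor, was lower in every aged sample (-1.16, unadjusted p = 0.00025 and adjusted p = 0.177 in edgeR's test).

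Markers of other cells gave further values for the sorted samples. All 10 leukocyte genes had a log2 fold change above 0, with a median of 2.00, and their FPKM summed to 182 to 234 in young and 199 to 387 in aged ECs, highest at 136 weeks. Fcer1g, with the most FPKM of them, had a log2 fold change of 0.017 and Lcp1 one of 0.28. Only 1 of the 10, Coro1a, was higher without overlap between the ages. In the 131-week sample Rac2, Tyrobp and Ptpn6 were below all young samples, and Coro1a and Fcer1g were above them. The other leukocyte genes, Ptprc included, were within the young range in that sample. Of 9 tested hepatocyte genes 8 were below 0 (median -0.84, sums of 123 to 166 and 96.4 to 156 FPKM), and Alb was at 19.1 to 40.2 FPKM, while Trf was the gene above 0 (0.33). A large part of these sums came from Trf, at 53.8 to 78.0 FPKM in young and 84.7, 47.5 and 110 FPKM in aged ECs. Of 12 stellate and mural genes 7 were below 0 (median -0.20, sums of 214 to 437 and 295 to 316 FPKM), and Lrat was lower in every aged sample (-2.19), with Ecm1 at -0.23 and Dcn at -0.17. Lrat was the only 1 of the 12 without overlap, and 5 genes were above 0, with Reln the highest (1.23). Ecm1 alone was at 154 to 281 FPKM, a large part of these sums. All 6 cholangiocyte genes were above 0 (median 0.79, sums of 69.0 to 83.7 and 147 to 183 FPKM), with Spp1 at 1.08 and Krt19 at 0.79. Most of these sums came from Spp1, and Epcam was at 1.24 to 2.92 FPKM and overlapped between the ages. Of 5 tested mesothelial genes 4 were below 0 (median -2.001), while their FPKM summed to 71.7 to 116 and 124 to 195, most of it from Gpm6a, the gene above 0 (0.81). Glul, which pericentral hepatocytes make, was at 80.9, 102 and 131 FPKM in young and 50.5, 67.7 and 62.7 FPKM in aged sorted cells, a log2 fold change of -0.77 ± 0.21 (SE) with an adjusted p of 0.256 in edgeR's test, and the 8 tested pericentral hepatocyte genes, with Oat at 0.048, had a median of -0.11. Glul was above Alb in FPKM in every sample, and which of the sorted cells held the Glul mRNA was not tested. Ptprc, Alb, Lrat, Epcam and Msln, the defining genes of the 5 lists, were above 0 FPKM in every sample. The part of these cells in the results above was not tested.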

How the data were processed

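RNA was read from 3 young and 3 aged samples of sorted liver ECs. Per the labels and the study's methods, the authors called bases with CASAVA (version 1.8.2) and mapped reads to mm9 with TopHat2 (2.1.0). The deposited tables hold raw counts of 24421 symbols and FPKM of 24346 symbols, which the authors made with Cuffnorm (2.2.1). The counting program, its annotation and its strand setting are not given in the sources used here. Of the counts, 14612 genes with at least 0.5 CPM in at least 1 sample were normalized by TMM and tested with the quasi-likelihood test of edgeR (4.0.16, R 4.3.3). Genes were called where the log2 fold change passed 1 in size and the Benjamini-Hochberg adjusted p was under 0.05. Ratios of FPKM + 0.1 were compared with exact permutation tests (scipy 1.17.1). DESeq2 (1.42.0) and limma (3.58.1) served as alternatives. Reads carried no molecular identifiers, so the floor of 3 counts covers counting error only. Named are the 10 genes, and per pathway list the 2 others with the highest FPKM and the 2 with the smallest p; per marker list the 2 with the highest FPKM and the defining gene; and the 3 genes most like Wnt2, Wnt9b and Rspo3. Kit, Lhx6, Thbd, Stab2, Lyve1, Cdh5, Msr1, Wif1, Tnfrsf19, Nkd1, Rspo2 and Rspo4 were named after their values were seen. So were Sfrp2, Coro1a, Rac2, Tyrobp, Ptpn6 and Reln. The 10 genes and all lists were chosen with earlier results of these data known.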

Additional observations from a re-analysis of the deposited data

How the results depend on the processing

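Of the 14 alternatives, DESeq2's Wald test was the only one to call one of the 10 genes, Wnt2 (log2 fold change -1.02). No paired analysis was run, because young and aged samples came from different mice and the labels name no pairs. Genes called higher and lower in aged ECs, 0 and 0 in edgeR, were 412 and 85 in DESeq2, 13 and 2 in limma-voom with sample quality weights, 3 and 1 without the filter, 1 and 0 on log2(FPKM + 0.1) and 1 and 1 with a term for the library type, and 0 to 1 and 0 when 1 sample was left out. That term gave 961 genes lower at an unadjusted p below 0.05. Leaving out 1 sample gave 729 to 1549 genes higher and 346 to 887 lower, and 1788 to 2697 higher and 1596 to 2333 lower without overlap. Of the 10 genes, those with an unadjusted p below 0.05 and a higher level numbered 0 with DESeq2's size factors, limma-voom and both FPKM fits, those with a lower level 4 in limma-voom, and leaving out 1 sample gave 0 to 1 and 1 to 3, with 0 to 2 higher and 2 to 4 lower without overlap. Wnt9b turned to -0.093 in limma-voom, -0.15 and -0.14 on log2 FPKM with 0.1 and 1 added and -0.053 with the library term, and Rspo3 to -0.18, -0.20, -0.20 and -0.051; with 1 sample left out they ranged from -0.40 to 0.41 and from -0.36 to 0.41. Tspan12 turned to -0.032 in limma-voom. Without 1 sample, the log2 fold changes of Wls (-0.19 to 0.056), Porcn (-0.0064 to 0.23), Lgr4 (-0.37 to 0.21), Tspan12 (-0.020 to 0.24) and Ccnd1 (-0.39 to 0.16) and the differences in the log2 ratios of Rspo3 to Wnt9b (-0.15 to 0.079), Lrp6 to Lrp5 (-0.18 to 0.071) and Dkk3 to Dkk2 (-0.44 to 1.32) spanned 0. The cause was not tested. The other log2 fold changes of the 10 genes kept their sign in all alternatives. Axin2 and Rspo1 were limited by counts of 12 to 70 and 1 to 15.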
